A study of Mus musculus with 9 samples.

Results

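The genes of cholesterol synthesis and lipogenesis were followed in hepatic stellate cells (HSCs) and in activated fibroblasts of fibrotic mouse livers. The members, 37 of the 24453 genes with values, were chosen by symbol from knowledge of the pathways, and all 37 were found. They comprise 17 enzymes that build cholesterol, 6 genes that control the sterol regulatory element-binding proteins (SREBPs) or carry sterol inside the cell, 3 genes of the liver X receptor (LXR) and cholesterol export, and 11 genes of fatty acid synthesis. Not every enzyme of either pathway is among them.

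RNA sequencing covered 3 libraries of each of 3 groups, and each library was made from the pooled cells of 3 to 5 mice. The methods give the C57BL/6J strain for the wild-type mice and the MC4R-KO line, and cite earlier work for the Col1a2-GFP Tg line. HSCs were taken by a density gradient from normal livers of wild-type mice, without a fluorescent sort. CCl4-fib were sorted as CD45- GFP+ cells from Col1a2-GFP Tg mice injected with carbon tetrachloride (CCl4) 2 times a week over 8 weeks. NASH-fib were sorted through the same gate from male Col1a2-GFP Tg mice crossed onto MC4R-KO, which went on a Western diet (WD) at 8 weeks of age and stayed on it for 20 weeks. The age of the other mice is not given in the sources used here. A slow spin to remove hepatocytes preceded both the gradient and the sort. GFP was driven by the Col1a2 promoter, so the gate takes collagen-producing cells of any origin, and only NASH-fib carry the Mc4r deletion. Genotype, diet, toxin and isolation therefore differ together between the groups and cannot be told apart. Mc4r, the deleted gene, had 0 reads in each HSC and CCl4-fib library and 4, 13 and 0 in NASH-fib, so that every read of it fell in the group labelled MC4R-KO. Counts per gene do not show whether these reads lie in the disrupted part, and with no read in the other groups they check no label.

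Cholesterol is made from acetyl-CoA through mevalonate, squalene and lanosterol, and the same acetyl-CoA feeds fatty acid synthesis. SREBP2 (Srebf2) mainly drives the genes of the first route and SREBP1 (Srebf1) those of the second, after SCAP has carried them out of the endoplasmic reticulum, where INSIG proteins hold them back when sterol is plentiful. LXRs sense oxysterols, raise cholesterol export and also induce Srebf1. In the liver hepatocytes are the main site of both routes, while quiescent HSCs store retinyl esters in lipid droplets that are lost as the cells become fibroblasts.

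Promoters of 5 members are shown, those of Lss, Srebf2, Fasn and Me1 because they were called in a comparison below. Hmgcs1 is added because, of the 29 members with a promoter entry, it alone matched the exact string TCACNCCAC. Other forms of the sterol regulatory element were not searched for. Each sequence is the stretch of 250 bases before the start site, 5′ to 3′ on the gene's strand, from RefSeq on GRCm38.p6 (the build also called mm10). Capitals mark TCACNCCAC, the core of the sterol regulatory element, and CCAAT, the box of NF-Y, which reads ATTGG where it lies on the other strand. The windows are chr13:119690101-119690350 (plus strand), chr10:76531355-76531604 (plus), chr15:82147019-82147268 (plus), chr11:120824548-120824797 (minus) and chr9:86687278-86687527 (minus).
Hmgcs1: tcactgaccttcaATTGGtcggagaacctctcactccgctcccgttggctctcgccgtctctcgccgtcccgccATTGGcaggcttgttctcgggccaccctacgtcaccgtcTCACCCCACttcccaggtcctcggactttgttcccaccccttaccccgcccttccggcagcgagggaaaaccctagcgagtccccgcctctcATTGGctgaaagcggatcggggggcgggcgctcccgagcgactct
Lss: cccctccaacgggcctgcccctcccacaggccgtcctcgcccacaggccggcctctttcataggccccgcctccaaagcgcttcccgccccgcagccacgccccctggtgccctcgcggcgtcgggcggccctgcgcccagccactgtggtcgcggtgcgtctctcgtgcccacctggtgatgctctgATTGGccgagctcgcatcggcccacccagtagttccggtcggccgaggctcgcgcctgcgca
Srebf2: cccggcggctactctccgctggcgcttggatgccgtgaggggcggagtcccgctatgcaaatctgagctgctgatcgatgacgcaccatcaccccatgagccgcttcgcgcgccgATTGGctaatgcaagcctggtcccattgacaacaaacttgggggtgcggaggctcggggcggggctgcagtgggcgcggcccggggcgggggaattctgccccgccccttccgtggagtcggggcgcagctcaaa
Fasn: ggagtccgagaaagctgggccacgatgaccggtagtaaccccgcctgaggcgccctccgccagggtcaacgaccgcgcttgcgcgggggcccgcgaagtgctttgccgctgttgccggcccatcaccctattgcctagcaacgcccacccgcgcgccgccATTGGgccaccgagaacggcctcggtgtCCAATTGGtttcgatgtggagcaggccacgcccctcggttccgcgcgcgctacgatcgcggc
Me1: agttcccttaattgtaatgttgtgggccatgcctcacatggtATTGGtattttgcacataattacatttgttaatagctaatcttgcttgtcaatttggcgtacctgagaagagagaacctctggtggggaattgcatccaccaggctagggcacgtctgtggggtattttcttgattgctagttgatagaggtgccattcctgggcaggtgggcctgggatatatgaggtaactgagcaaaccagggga

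Of the 37 members, 29 had an entry among 32851 promoters of 300 bases (250 before and 50 after the start), with 39 promoters in all. CCAAT stood on either strand in 24 of the 39 (61.5%), from 23 members, against 37.4% of all promoters. The E-box CACGTG stood in 8 of the 39 (20.5%), from 7 members, against 7.15% of all, and TCACNCCAC in 1, that of Hmgcs1 at position -137 from the start, against 1.24% of all. In Fasn a CCAAT and an ATTGG share bases in the run CCAATTGG, 62 bases before the start. A match is only a description of the letters in the window, and Fdps, Fdft1, Sqle, Stard4, Abcg1, Scd1, Scd2 and Fads1 had no entry.

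Values are reads scaled so that every library has the same total. The reads on genes numbered between 3071070 and 3825522 in HSC libraries, between 4687349 and 5634273 in CCl4-fib and between 3289758 and 5021156 in NASH-fib, and 3 reads, taken as the floor, had a value of 2.38 to 4.37, a limit that covers counting error only. Differences between groups were tested with limma on log2(value + 1) for 13651 genes. A gene counts as called where its adjusted p was under 0.05 (Benjamini-Hochberg) and its log2 fold change had a size of 1 or more. On this scale a fold change understates the change of low genes. An exact two-sided permutation test of 3 libraries against 3 cannot go below 0.1, and nothing ties a replicate number across the 3 groups to a shared litter or day. The labels of CCl4-fib and NASH-fib share a date, as read below, in replicates 1 and 3, and no other same-numbered pair does. In bulk samples fewer cells of a type and less RNA per cell cannot be told apart.

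Of the libraries, 2 stood apart within their groups, HSC replicate 2 and NASH-fib replicate 1. Their labels carry the same prefix, read here as a date (as does that of CCl4-fib replicate 1). What these prefixes stand for is not stated in the sources used here. No other date covers the 3 groups, and 1 library of each leaves nothing to compare within it. Their deviations from their group means had a correlation of 0.645 over the tested genes and of 0.786 over the 37 members, a description across genes of 2 libraries. In both, 8 members lay above the other 2 libraries of the group, among them Insig1, Insig2, Idi1, Cyp51, Abca1 and Me1, and 11 lay below, among them Srebf2, Abcg1, Nr1h3, Dhcr7, Pmvk and Fads2. The called genes are therefore also given without these 2 libraries, an alternative added after the data were seen, as are other genes named below where leaving them out made a call.

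Marker genes of other liver cells also differed between the groups. The summed value of 11 hepatocyte markers (all above 0) was 18491.1 to 42484.9 in HSCs, 2122.9 to 2495.8 in CCl4-fib and 8233.0 to 34208.6 in NASH-fib, so that each CCl4-fib library lay below every other library. Markers of sinusoidal endothelial cells summed to 4913.1 to 10907.0 in HSCs, 161.2 to 196.8 in CCl4-fib and 867.5 to 2950.4 in NASH-fib, and those of macrophages to 4065.7 to 13406.8, 373.0 to 751.9 and 2784.1 to 6051.2. Cholangiocyte markers went the other way, with 30.4 to 69.9 in HSCs, 1372.9 to 3223.4 in CCl4-fib and 874.1 to 1116.0 in NASH-fib. The cell types named by the labels showed their markers: quiescent stellate genes summed to 30072.8 to 33196.9 in HSCs and to at most 3062.9 in the fibroblasts, and activated fibroblast genes to 6261.1 to 12010.5 in HSCs, 45779.7 to 52913.3 in CCl4-fib and 23531.4 to 28038.3 in NASH-fib. The part of these cells in the differences between groups given below was not tested.

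**Figure D1:**
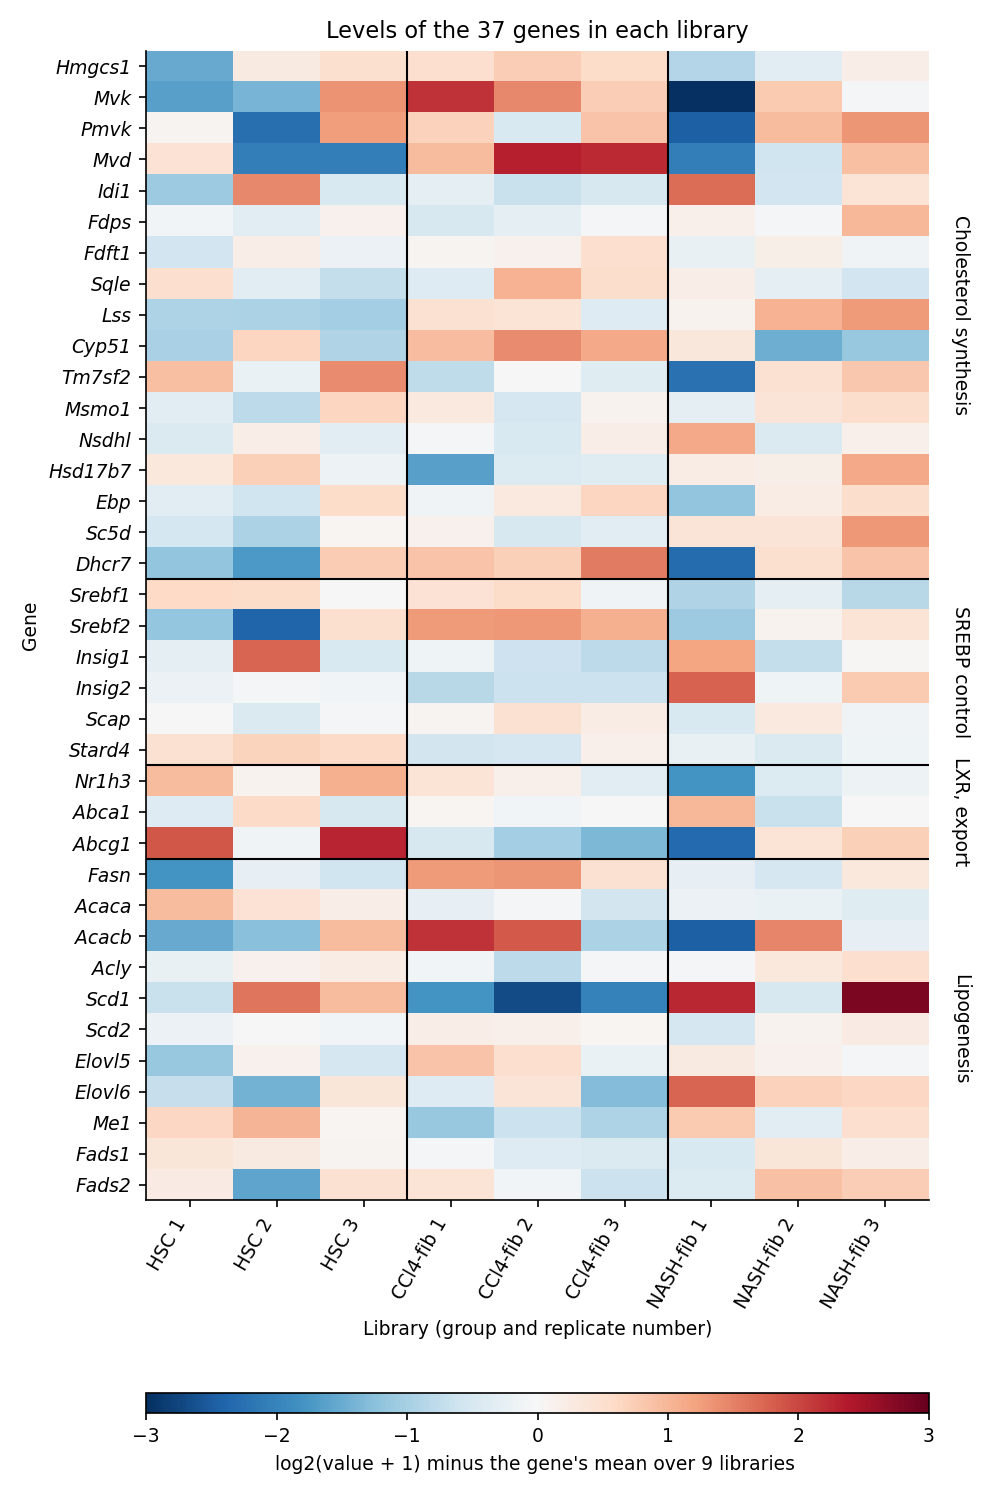
Levels of the 37 genes (rows, grouped by role) in the 9 libraries (columns), as log2(value + 1) minus the gene's mean over the libraries. Scd1 is low in the 3 CCl4-fib libraries and high in NASH-fib replicates 1 and 3, while most other rows show no block that follows a group. The deepest single cell is that of Mvk in NASH-fib replicate 1, where this low gene had no read.

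CCl4-fib differed from HSCs in 4 of the 36 tested members, with Fasn and Srebf2 higher and Scd1 and Me1 lower, where 16.2% of all tested genes were called higher and 11.7% lower. NASH-fib differed from HSCs in Lss alone and from CCl4-fib in Scd1 alone, both higher, where 8.23% and 4.97% of all tested genes were called higher (4.3% and 5.66% lower). These were 11.1%, 2.78% and 2.78% of the members tested, where over all tested genes 27.8%, 12.5% and 10.6% were called in CCl4-fib against HSCs, NASH-fib against HSCs and NASH-fib against CCl4-fib. The libraries of the 2 groups did not overlap for 15, 7 and 12 members (41.7%, 19.4% and 33.3%), against 48.6%, 24.4% and 39.1% of all tested genes. By direction, 7, 3 and 7 members lay wholly above (27.8%, 12.7% and 17.1% of all tested genes) and 8, 4 and 5 wholly below (20.9%, 11.6% and 22.0%). The median log2 fold change of the members was 0.14, 0.20 and 0.05 in that order, against 0.18, -0.02 and -0.11 over all tested genes, which TMM scaling moved to 0.07, 0.04 and 0.07. The comparisons share their libraries pairwise and are not independent of each other. At an unadjusted p under 0.05 the counts were 7, 5 and 8 members, and 1 member, Mvd, was too low to be tested.

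**Figure D2:**
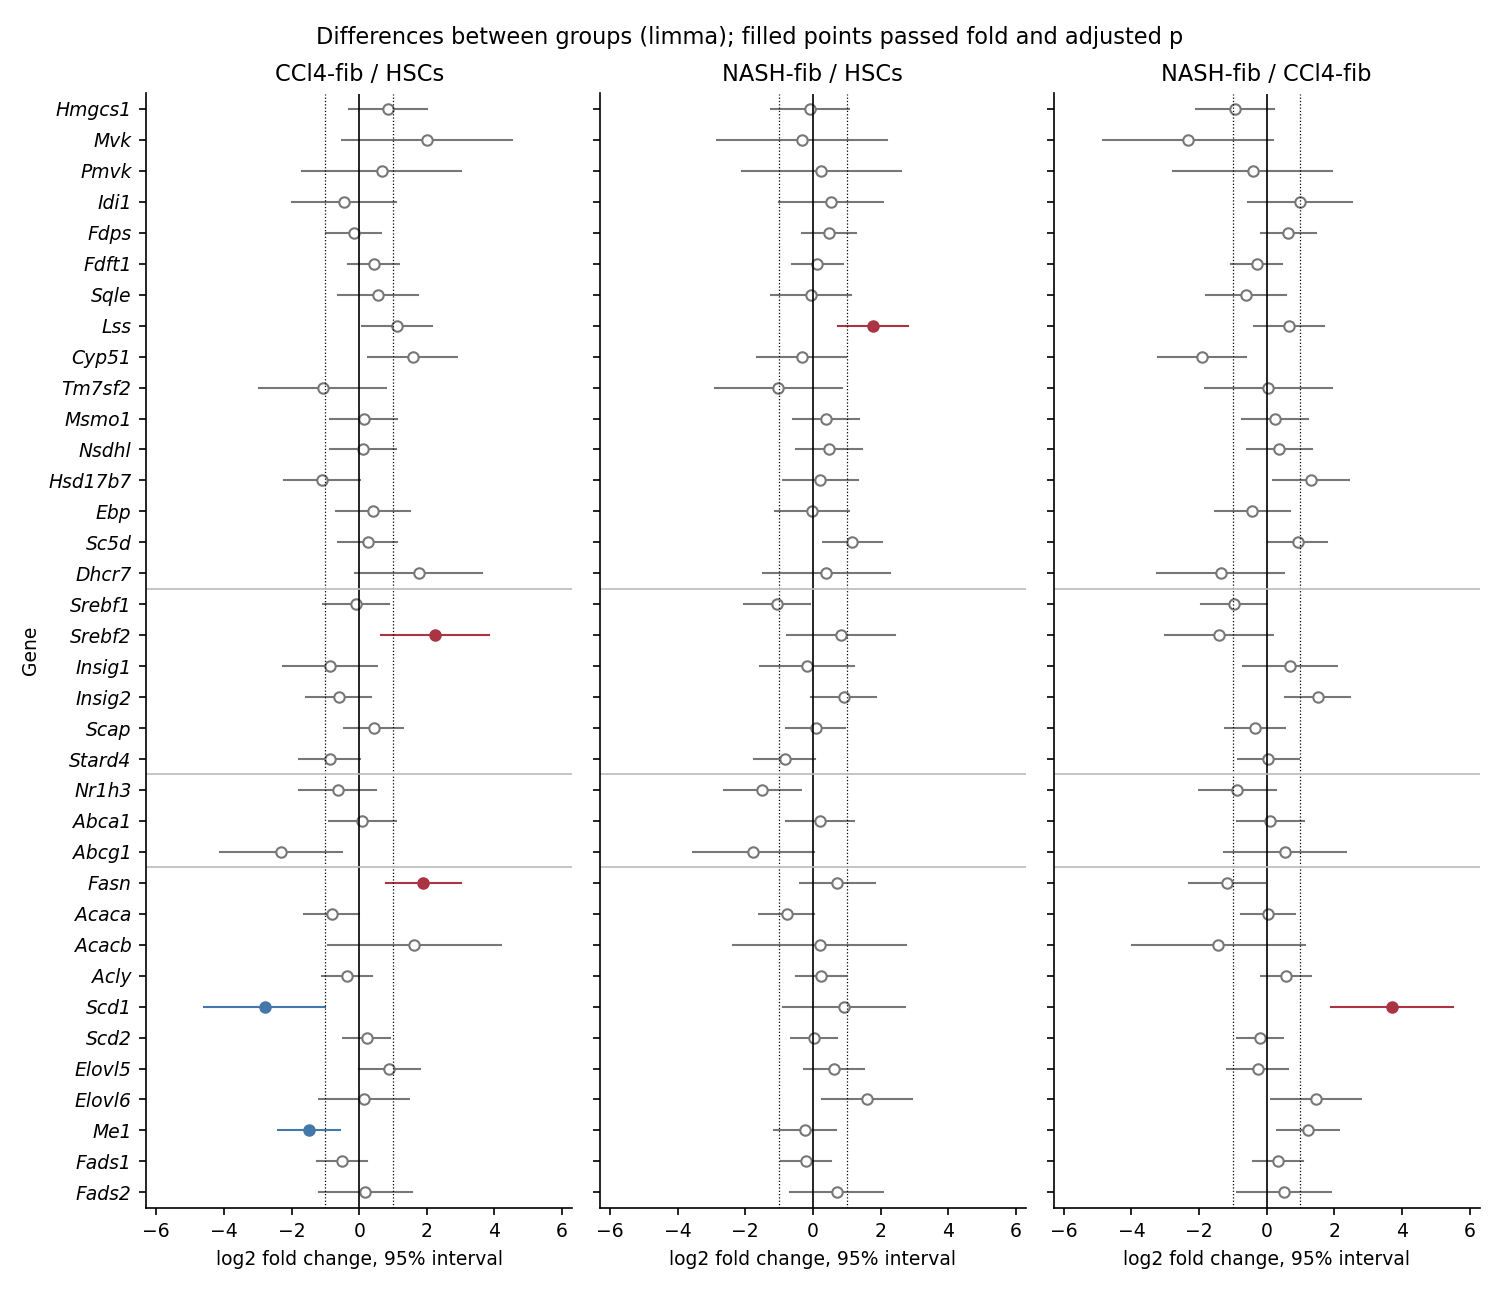
Log2 fold changes (points) with 95% intervals (lines) of the 36 tested members in the 3 comparisons, from limma. Filled points were called, dotted lines mark -1 and 1, and only Fasn, Srebf2, Scd1 and Me1 (left), Lss (middle) and Scd1 (right) are filled.

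The enzymes of cholesterol synthesis gave 1 call in the 3 comparisons, Lss in NASH-fib against HSCs. In CCl4-fib against HSCs limma, edgeR and DESeq2 each called 0 of them (2 at an unadjusted p under 0.05 with limma), and in NASH-fib against CCl4-fib limma and edgeR called 0 and DESeq2 2. Summed over the 17 enzymes, the value was 2112.4 to 3494.6 in HSCs, 3113.7 to 3701.8 in CCl4-fib and 3168.7 to 4824.6 in NASH-fib, so that the ranges overlapped for each pair of groups. By their mean, 8 of the 17 were highest in CCl4-fib, 8 in NASH-fib and 1 in HSCs. Their median log2 fold change was 0.41 in CCl4-fib against HSCs, 0.23 in NASH-fib against HSCs and -0.12 in NASH-fib against CCl4-fib.

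Lss (NM_146006, chromosome 10, 76531605 to 76557139, plus strand), the synthase that closes squalene epoxide into lanosterol, was the enzyme that was called. In the order of replicates 1, 2 and 3, which all values below follow, it stood at 26.9, 26.2 and 25.1 in HSCs, at 71.4, 68.9 and 39.1 in CCl4-fib and at 55.7, 107.8 and 126.8 in NASH-fib. Both kinds of fibroblasts lay above all HSC libraries, in which Lss had the smallest spread of all tested members (SD 0.048 of log2 values, n = 3). NASH-fib exceeded HSCs by 1.77 log2 units (standard error 0.47, adjusted p = 0.0304, limma with Benjamini-Hochberg adjustment), and CCl4-fib by 1.12 (0.47), which did not pass (adjusted p = 0.1). NASH-fib against CCl4-fib gave a 95% interval from -0.38 to 1.69. The call was made in 9 of 18 alternatives and was lost, with an adjusted p between 0.0538 and 0.132, without any 1 HSC library, CCl4-fib replicate 2, or NASH-fib replicate 2 or 3. It was also lost with the replicate number or the date as a term and in a fit of these 2 groups alone (up to 0.31). Without both libraries that stand apart the log2 fold change was 2.13 (adjusted p = 0.013). Of its exonic bases, 8.16% also belong to 4930483K19Rik on the other strand, whose reads were counted with it.

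Hmgcs1, which makes HMG-CoA at the head of the mevalonate route, stood at 119, 415 and 483 in HSCs, at 485, 573 and 499.9 in CCl4-fib and at 186, 272 and 395 in NASH-fib. Every CCl4-fib library lay above all others, but the differences did not pass, at 0.84 against HSCs (standard error 0.52, adjusted p = 0.25) and -0.93 for NASH-fib against CCl4-fib (0.52, adjusted p = 0.264, limma with Benjamini-Hochberg adjustment). Fdft1, squalene synthase, stood at 180.02, 304 and 236 in HSCs, at 283, 290.02 and 381 in CCl4-fib and at 227, 302 and 247 in NASH-fib, with overlap in each pair. Sqle, which makes the epoxide that Lss closes, stood at 59.6, 33.5 and 25.1 in HSCs, at 31.8, 86.8 and 60.1 in CCl4-fib and at 47.6, 33.8 and 27.5 in NASH-fib, again with overlap. The 95% intervals of Fdft1 reached from -0.32 to 1.17 in CCl4-fib against HSCs and from -0.62 to 0.88 in NASH-fib against HSCs, and those of Sqle from -0.62 to 1.74 and from -1.24 to 1.12. Both genes' intervals include a change of 1 unit in CCl4-fib against HSCs. Hmgcs1 shares 16% of its exonic bases with Gm48342 and Fdft1 20.9% with Ctsb, each on the other strand.

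Cyp51, the demethylase that acts on lanosterol, came close to a call in opposite directions. It stood at 36.2, 114 and 38.3 in HSCs, at 139.7, 194 and 161 in CCl4-fib and at 92.4, 25.8 and 32.4 in NASH-fib. CCl4-fib lay above every other library, by 1.58 over HSCs (standard error 0.59, adjusted p = 0.0718), and NASH-fib against CCl4-fib was -1.91 (0.59, adjusted p = 0.0655, limma with Benjamini-Hochberg adjustment). HSC replicate 2 and NASH-fib replicate 1, the libraries that stand apart, were the highest of their groups, and without them both differences were called, at 2.10 (adjusted p = 0.00244) and -2.46 (adjusted p = 0.00789).

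Sc5d, the desaturase of a late sterol step, stood at 390.4, 288 and 579.8 in HSCs, at 610.4, 402 and 452 in CCl4-fib and at 729.98, 734 and 1389 in NASH-fib. NASH-fib lay above all other libraries, by 1.17 against HSCs (standard error 0.39, adjusted p = 0.0863) and 0.91 against CCl4-fib (0.39, adjusted p = 0.156, limma with Benjamini-Hochberg adjustment), and DESeq2 called both, with adjusted p-values of 0.0279 and 0.0497. Hsd17b7, the keto-sterol reductase of the demethylation steps, was lower in each CCl4-fib library (21.4, 51.0 and 53.4) than in any HSC library (85.3, 114 and 62.2) or NASH-fib library (80.2, 77.5 and 151). Its log2 fold changes were -1.10 for CCl4-fib against HSCs (adjusted p = 0.128) and 1.31 for NASH-fib against CCl4-fib (adjusted p = 0.118, limma with Benjamini-Hochberg adjustment), and DESeq2 called the second.

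Of the other enzymes, Mvk, Pmvk and Mvd, which carry mevalonate on toward the isoprene units, were lowest, or tied for the lowest, in NASH-fib replicate 1, with values of 0, 17.7 and 0. Mvd was near the floor in HSCs (4.68, 0 and 0) and stood at 7.14, 20.4 and 19.1 in CCl4-fib and at 0, 1.78 and 6.88 in NASH-fib. With no filter on low genes it was called higher in CCl4-fib than in HSCs. Dhcr7, the reductase of the last step in one branch, stood at 42.1, 29.1 and 165 in HSCs, at 176, 162 and 288 in CCl4-fib and at 19.0, 137 and 177 in NASH-fib. The lowest value in HSCs and in NASH-fib was that of the library that stands apart, and the 95% interval for CCl4-fib against HSCs ran from -0.12 to 3.64. This difference was called without NASH-fib replicate 1 (adjusted p = 0.0408, limma with Benjamini-Hochberg adjustment). Idi1, Fdps, Tm7sf2, Msmo1, Nsdhl and Ebp were not called in any comparison. Between the lowest and the highest of the 9 libraries they differed by 6.89-fold (Idi1, highest in NASH-fib replicate 1), 2.83-fold (Fdps), 21.1-fold (Tm7sf2), 2.7-fold (Msmo1), 3.01-fold (Nsdhl) and 3.58-fold (Ebp), and of the exonic bases of Fdps 77.4% are shared with Gm43738 on the same strand.

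**Figure D3:**
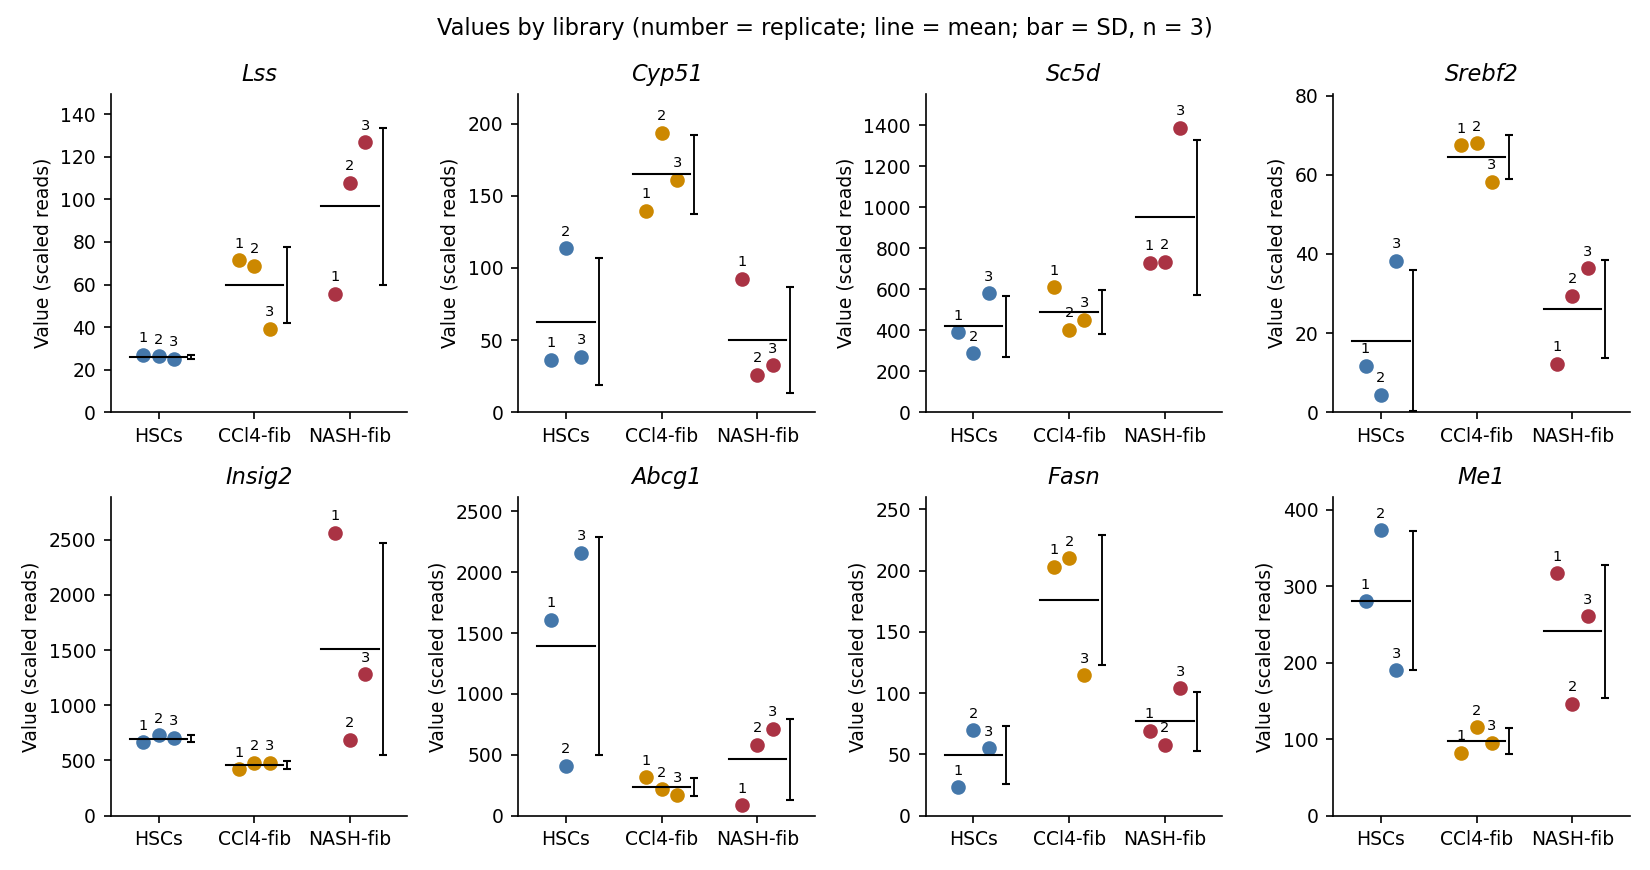
Values (scaled reads, linear axis from 0) of 8 members in the 3 groups, with the replicate number at each point, the mean as a line and the SD as a bar (n = 3). Lss is lowest in the 3 HSC libraries, Srebf2 and Fasn are highest in the 3 CCl4-fib libraries, and Me1 is lowest there.

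Among the genes that control SREBP, Srebf2 was the only call. Srebf2 (NM_033218, chromosome 15, 82147269 to 82204960, plus strand) stood at 11.7, 4.37 and 38.3 in HSCs, at 67.5, 68.0 and 58.2 in CCl4-fib and at 12.2, 29.4 and 36.4 in NASH-fib. The 3 CCl4-fib libraries lay above all others and close together, while HSC replicate 2 was at the level of 3 reads. CCl4-fib exceeded HSCs by 2.24 log2 units (standard error 0.72, adjusted p = 0.0416), and NASH-fib against CCl4-fib, at -1.41 (0.72), did not pass (adjusted p = 0.226, limma with Benjamini-Hochberg adjustment). This call was made in 6 of 18 alternatives. It was lost without HSC replicate 1 or 2, any 1 CCl4-fib library, or NASH-fib replicate 2 or 3, and with no filter on low genes, the replicate number or the date as a term (adjusted p up to 0.13). It was also lost with edgeR (1.71, adjusted p = 0.0936) and without the libraries that stand apart (1.55, adjusted p = 0.0522).

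Srebf1, whose product drives fatty acid synthesis genes, stood at 67.8, 65.5 and 44.2 in HSCs, at 59.5, 64.6 and 41.0 in CCl4-fib and at 23.1, 35.6 and 24.6 in NASH-fib. Each NASH-fib library lay below all 6 others. The log2 fold changes of -1.07 against HSCs (standard error 0.44, adjusted p = 0.17) and -0.96 against CCl4-fib (0.44, adjusted p = 0.176, limma with Benjamini-Hochberg adjustment) did not pass, and no alternative called either. Scap, the escort of SREBP, was the steadiest of these genes, at 66.6, 49.5 and 65.8 in HSCs, at 72.2, 93.6 and 79.2 in CCl4-fib and at 48.9, 83.7 and 62.9 in NASH-fib. Its 95% intervals lay between -1.22 and 1.30 over the 3 comparisons, and 18.6% of its exonic bases are shared with 5830462I19Rik on the other strand.

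Insig2, which retains SREBP and does not need SREBP for its own expression, stood at 663, 727 and 707 in HSCs, at 419.9, 479.7 and 479 in CCl4-fib and at 2564, 687 and 1283 in NASH-fib. Each CCl4-fib library lay below all others. NASH-fib against CCl4-fib was 1.51 (standard error 0.43, adjusted p = 0.0502, limma with Benjamini-Hochberg adjustment), just short of a call, and 6 of 18 alternatives called it, edgeR and DESeq2 among them. Without the libraries that stand apart, of which NASH-fib replicate 1 is the highest, it was 1.03 (adjusted p = 0.0468). Insig1, itself a target of SREBP, stood at 471, 1925 and 418 in HSCs, at 521, 372 and 332 in CCl4-fib and at 1306, 345 and 585 in NASH-fib, with its 2 highest values in the libraries that stand apart and overlap in each pair of groups. Stard4, which carries sterol between membranes, was lower in every library of CCl4-fib (34.1, 35.7 and 56.3) and of NASH-fib (43.5, 37.4 and 46.2) than in HSCs (70.1, 81.6 and 76.5), with log2 fold changes of -0.87 (adjusted p = 0.135) and -0.83 (adjusted p = 0.27, limma with Benjamini-Hochberg adjustment).

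The 3 genes of LXR and cholesterol export gave 0 calls with limma, with 1 gene at an unadjusted p under 0.05 in each comparison with HSCs and 0 between the fibroblasts. DESeq2 called 1 in each comparison with HSCs and edgeR 1 in CCl4-fib against HSCs, and both called 0 between the fibroblasts. Nr1h3, which encodes LXR alpha, stood at 180.02, 99.0 and 195 in HSCs, at 122, 103 and 72.5 in CCl4-fib and at 25.8, 68.6 and 82.6 in NASH-fib. NASH-fib lay below every HSC library, at -1.50 (standard error 0.51, adjusted p = 0.0927, limma with Benjamini-Hochberg adjustment), and DESeq2 called it (adjusted p = 0.0408). Abcg1, a transporter that passes cholesterol to lipoproteins and is also high in macrophages and endothelium, stood at 1609, 409 and 2159 in HSCs, at 314, 215 and 172 in CCl4-fib and at 87.0, 582 and 715 in NASH-fib. It was lower in every CCl4-fib library than in any HSC library, at -2.31 (standard error 0.81, adjusted p = 0.0565, limma with Benjamini-Hochberg adjustment), and edgeR, DESeq2 and 5 other alternatives called it. HSC replicate 2 and NASH-fib replicate 1 were the lowest of their groups, and without them Abcg1 was called in all 3 comparisons, lower in CCl4-fib (-3.04, adjusted p = 8.4e-05) and NASH-fib (-1.53, adjusted p = 0.0126) than in HSCs and higher in NASH-fib than in CCl4-fib (1.51, adjusted p = 0.0165). By group mean Abcg1 was highest in HSCs and lowest in CCl4-fib, although its lowest library was NASH-fib replicate 1. The endothelial marker sums above are also highest in HSCs and lowest in CCl4-fib. Those of macrophages are lowest in CCl4-fib, but HSCs and NASH-fib overlap. Within HSCs and within CCl4-fib the replicates had the same order in Abcg1 as in the endothelial sum, but not as in the macrophage sum. Within NASH-fib Abcg1 followed the order of neither sum. The part of these cells in the differences of Abcg1 was not tested. Abca1, the other exporter, stood at 563, 1086 and 521 in HSCs, at 758, 693 and 737 in CCl4-fib and at 1455, 460.5 and 728 in NASH-fib, with the opposite deviation in the libraries that stand apart and 95% intervals between -0.90 and 1.20.

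Of the lipogenesis genes, 3 of 11 were called in CCl4-fib against HSCs, 1 higher and 2 lower, and 1 in NASH-fib against CCl4-fib. These shares of 27.3% and 9.09% are near the 27.8% and 10.6% of all tested genes. Summed without Scd1, the other 10 stood at 2475.9 to 2992.4 in HSCs, 2356.5 to 3186.8 in CCl4-fib and 2752.7 to 3289.5 in NASH-fib, ranges that overlapped for each pair. Fasn, the fatty acid synthase, and Scd1, the desaturase that makes oleate, moved in opposite directions in CCl4-fib.

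Fasn (NM_007988, chromosome 11, 120805958 to 120824547, minus strand) stood at 23.4, 69.9 and 55.0 in HSCs, at 203, 210.07 and 114 in CCl4-fib and at 69.3, 57.9 and 104 in NASH-fib. The CCl4-fib libraries lay above all others. Their excess over HSCs was 1.89 log2 units (standard error 0.50, adjusted p = 0.0183), and NASH-fib against CCl4-fib, at -1.17 (0.50), did not pass (adjusted p = 0.156, limma with Benjamini-Hochberg adjustment). The call against HSCs was made in 14 of 18 alternatives, was lost with the date in the labels as a term and without HSC replicate 1 or CCl4-fib replicate 1 or 2 (adjusted p up to 0.0959), and stood at 2.21 without the libraries that stand apart (adjusted p = 0.00708).

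Me1 (NM_001198933, chromosome 9, 86581363 to 86687277, minus strand), the malic enzyme that supplies NADPH, stood at 281, 373 and 190.1 in HSCs, at 82.6, 116 and 95.4 in CCl4-fib and at 317, 146 and 260.4 in NASH-fib. CCl4-fib lay below all other libraries. Its log2 fold change against HSCs was -1.47 (standard error 0.41, adjusted p = 0.0235), and NASH-fib exceeded CCl4-fib by 1.23 (0.41, adjusted p = 0.082, limma with Benjamini-Hochberg adjustment), which did not pass. The call was made in 12 of 18 alternatives, was lost when HSC replicate 1 or 2 or any CCl4-fib library was left out (adjusted p up to 0.0856) and with the date in the labels as a term (0.12), and held without both libraries that stand apart (-1.24, adjusted p = 0.0267).

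Scd1 (NM_009127, chromosome 19, 44394450 to 44407709, minus strand) had the widest range among the members with no library at 0 (Mvk and Mvd had such libraries), from 338.5 to 15405, or 45.5-fold. It stood at 1372, 6541 and 4178 in HSCs, at 619, 338.5 and 528 in CCl4-fib and at 10413, 1561 and 15405 in NASH-fib. CCl4-fib lay below all other libraries, while NASH-fib and HSCs overlapped. The log2 fold change was -2.80 in CCl4-fib against HSCs (standard error 0.81, adjusted p = 0.0272), 3.71 in NASH-fib against CCl4-fib (0.81, adjusted p = 0.0222) and 0.91 in NASH-fib against HSCs (0.81, adjusted p = 0.616, limma with Benjamini-Hochberg adjustment), where the 95% interval ran from -0.88 to 2.71. Each of the first 2 calls was made in 13 of 18 alternatives. The first was lost without HSC replicate 2 or 3 or any CCl4-fib library (adjusted p up to 0.0976), and the second without NASH-fib replicate 1 or 3 or any CCl4-fib library (up to 0.0954), while both held without the libraries that stand apart, at -2.32 (adjusted p = 0.0486) and 3.35 (adjusted p = 0.0269).

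Scd1 and the summed hepatocyte markers were both lowest in the 3 CCl4-fib libraries. In the other 6 libraries their order differed, since HSC replicate 3 had the highest marker sum (42484.9) and NASH-fib replicate 3 the highest Scd1. Within NASH-fib both rose in the order of replicates 2, 1 and 3, while within HSCs their orders differed. Per 100 units of the marker sum, Scd1 stood at 7.42, 24.5 and 9.84 in HSCs and at 27.6, 15.9 and 21.1 in CCl4-fib. In NASH-fib it stood at 39.0, 19.0 and 45.0. The part of hepatocyte RNA in the difference was not tested. Scd1 took 35.7 to 68.6% of the summed value of the 11 lipogenesis genes in HSCs, 11.1 to 18.3% in CCl4-fib and 33.4 to 82.4% in NASH-fib. In NASH-fib replicate 3 it reached 3.25 reads per base, where the limit of 3 reads per position flattens a value, and no other member passed 0.701.

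Scd2, the desaturase that lies 87.6 kb from Scd1 on chromosome 19 and prevails outside hepatocytes, was nearly level. It stood at 561, 639 and 601 in HSCs, at 726, 705 and 662 in CCl4-fib and at 446, 682 and 756 in NASH-fib, within 1.7-fold over the 9 libraries. Its 95% intervals ran from -0.47 to 0.90 in CCl4-fib against HSCs, from -0.65 to 0.71 in NASH-fib against HSCs and from -0.87 to 0.50 in NASH-fib against CCl4-fib, which leaves out a change of 1 unit. Scd1 stood at 2.45, 10.2 and 6.95 times Scd2 in HSCs, 0.852, 0.48 and 0.797 times in CCl4-fib and 23.4, 2.29 and 20.4 times in NASH-fib, so Scd2 was the more abundant in CCl4-fib alone. Of the 36-base words of Scd1, 4.46% also occur in Scd2 and 5.02% in Scd3, and reads on these could be split between the genes.

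**Figure D4:**
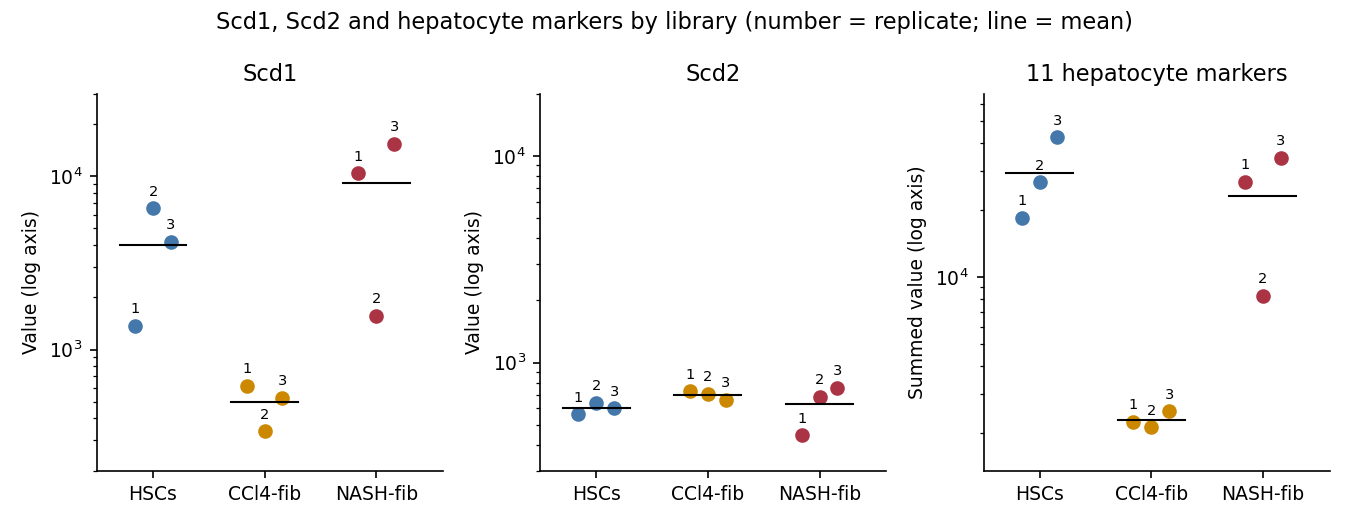
Values of Scd1 and Scd2 and the summed value of 11 hepatocyte markers in each library on log axes, with the replicate number at each point and the mean as a line. Scd1 and the marker sum are lowest in the 3 CCl4-fib libraries, and Scd2 stays between 446 and 756.

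The remaining lipogenesis genes were not called, and in NASH-fib against HSCs limma, edgeR and DESeq2 each called 0 of the 11 (1 at an unadjusted p under 0.05 with limma). Elovl6, which lengthens palmitate, was higher in each NASH-fib library (266, 129 and 122) than in any library of HSCs (49.1, 29.1 and 102) or CCl4-fib (60.3, 104 and 31.5), by 1.60 (standard error 0.60, adjusted p = 0.128) and 1.45 (0.60, adjusted p = 0.141, limma with Benjamini-Hochberg adjustment). Without the libraries that stand apart the first was 0.82 (adjusted p = 0.438). It was called in both comparisons only with the date in the labels as a term (adjusted p = 0.0448 and 0.0496). Acaca, the carboxylase that makes malonyl-CoA, was lower in every library of CCl4-fib (91.3, 105 and 73.5) and NASH-fib (96.5, 93.5 and 84.5) than in HSCs (210.4, 146 and 126), with log2 fold changes of -0.81 (adjusted p = 0.125) and -0.77 (adjusted p = 0.254, limma with Benjamini-Hochberg adjustment). Acacb, its mitochondrial relative, was low and uneven, from 1.36 to 57.2. Acly, which releases acetyl-CoA from citrate, lay between 369 and 914, Elovl5 between 223 and 888, Fads1 between 285 and 508, and Fads2 between 20.4 and 118, and none was called in the 3 comparisons, though Elovl5 was called in CCl4-fib against HSCs without the libraries that stand apart (1.21, adjusted p = 0.0226).

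Per kilobase of exon, the order of the mean levels also differed. Scd1 led in HSCs (834.7 per kb) and NASH-fib (1889.9 per kb) but stood at 102.5 per kb in CCl4-fib, where Ebp (255.5 per kb), Elovl5 (242.9 per kb) and Sc5d (217.9 per kb) led. Insig1 and Insig2 followed Scd1 in HSCs, at 355.2 and 259.8 per kb, and Insig2 and Sc5d in NASH-fib, at 561.9 and 424.3 per kb. Mvd and Acacb were the lowest in HSCs and NASH-fib. The order of neighbours was not tested.

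The members varied within groups about as other genes did. The SD of log2(value + 1) over the 3 libraries had a median of 0.607 over the tested members in HSCs, 0.378 in CCl4-fib and 0.623 in NASH-fib, against 0.657, 0.366 and 0.708 over all tested genes. In HSCs it was largest for Pmvk and in NASH-fib for Mvk.

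Further genes of both pathways were read from 2 lists of 29 genes each, of which 28 each were tested. Of the cholesterol list, which covers isoprenoid branches, SREBP processing, esterification, transport and oxysterols, 5 genes were higher and 3 lower in CCl4-fib than in HSCs, 28.6% against the 27.8% of all tested genes. NASH-fib differed from HSCs in 1 higher and 1 lower gene (7.14% against 12.5% of all). It differed from CCl4-fib in 6 lower genes (21.4%, where 10.6% of all were called and 5.66% were called lower). Without the libraries that stand apart these counts were 11, 7 and 7 genes, and with DESeq2 11, 6 and 9. Of the lipogenesis list, 3 were higher and 4 lower in CCl4-fib than in HSCs (25% against 27.8% of all). In NASH-fib against HSCs 0 differed, against 12.5% of all (3 at an unadjusted p under 0.05, 0 called by edgeR and 2 by DESeq2). In NASH-fib against CCl4-fib 1 was higher and 2 lower (10.7% against 10.6% of all). Without the libraries that stand apart these counts were 12, 1 and 5 genes, and with DESeq2 11, 2 and 6. The counts over all tested genes moved with the setting too. In the same order, limma called 2209 higher and 1592 lower, 1124 and 587, and 678 and 773. DESeq2 called 2458 and 2125, 1415 and 742, and 1518 and 1161. Without the libraries that stand apart the counts over all genes were 2636 and 1706, 1313 and 686, and 750 and 986.

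Ch25h, which makes an oxysterol that restrains SREBP processing, had no read in any HSC library and stood at 93.7, 106 and 100.2 in CCl4-fib and at 4.08, 26.7 and 19.7 in NASH-fib. Against the floor of 4.37 it was at least 22.9-fold higher in CCl4-fib (adjusted p = 9.8e-05) and at least 3.85-fold higher in NASH-fib (adjusted p = 0.004), and NASH-fib against CCl4-fib was -2.82 log2 units (standard error 0.69, adjusted p = 0.0306, limma with Benjamini-Hochberg adjustment). NASH-fib replicate 1 was at the level of 3 reads and cannot be told apart from the HSC libraries. The difference between the fibroblasts was called in 11 of 18 alternatives, also without the libraries that stand apart (-2.08, adjusted p = 0.0363), but not without any 1 CCl4-fib library, NASH-fib replicate 1 or NASH-fib replicate 3, nor with the replicate number or the date as a term (adjusted p up to 0.12). With the date as a term the difference between NASH-fib and HSCs was not called either (adjusted p = 0.139). Both differences from HSCs were called without the libraries that stand apart (adjusted p = 2.26e-05 in CCl4-fib and 0.000634 in NASH-fib).

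Npc2, which takes cholesterol out of lysosomes, stood at 382, 319 and 794 in HSCs, at 3727, 3944 and 4655 in CCl4-fib and at 359, 1065 and 894 in NASH-fib, and NASH-fib against CCl4-fib was -2.55 (standard error 0.47, adjusted p = 0.0136, limma with Benjamini-Hochberg adjustment). Mylip, an LXR target that marks lipoprotein receptors for destruction, was highest in HSCs (1494, 2422 and 1071) and stood at 564, 279 and 299 in NASH-fib and 341, 180.3 and 135 in CCl4-fib. Its log2 fold change in NASH-fib against HSCs was -2.12 (standard error 0.47, adjusted p = 0.0122, limma with Benjamini-Hochberg adjustment). The first was lost without CCl4-fib replicate 2 (adjusted p = 0.058) and the second without NASH-fib replicate 2 or 3 or with the date as a term (up to 0.0637). Without the libraries that stand apart both were called, at -2.07 and -2.13. Slc25a1, the carrier that brings citrate out of mitochondria, stood at 131, 104 and 116 in CCl4-fib against 9.35, 24.8 and 32.3 in HSCs and 8.16, 27.6 and 24.6 in NASH-fib, and NASH-fib against CCl4-fib was -2.64 (standard error 0.61, adjusted p = 0.0251, limma with Benjamini-Hochberg adjustment), a call made in 13 of 18 alternatives and lost without any 1 CCl4-fib library or NASH-fib replicate 1 or 3 (up to 0.0936). It stood at -2.12 without the libraries that stand apart (adjusted p = 0.0327). Npc2, Mylip and Slc25a1 were also called in CCl4-fib against HSCs. Their log2 fold changes were 3.15 (adjusted p = 0.000861), -2.95 (0.00116) and 2.51 (0.0118, limma with Benjamini-Hochberg adjustment). These calls were also made by edgeR, by DESeq2 and without the libraries that stand apart.

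Elovl3, an elongase of very long chains, fell to near the floor in CCl4-fib. It stood at 456, 673 and 2472 in HSCs, at 3.17, 0 and 8.59 in CCl4-fib and at 101, 44.5 and 367 in NASH-fib, with no overlap in any pair of groups. Its log2 fold change was -8.06 in CCl4-fib against HSCs (standard error 0.98, adjusted p = 0.000245) and 5.13 in NASH-fib against CCl4-fib (0.98, adjusted p = 0.0147, limma with Benjamini-Hochberg adjustment). In NASH-fib against HSCs it was -2.94 (0.98, adjusted p = 0.0848 with limma), which did not pass, and DESeq2 called it. Elovl2 and Dgat2, of polyunsaturated fatty acid elongation and triglyceride synthesis, were also lower in CCl4-fib than in HSCs, with log2 fold changes of -3.83 (standard error 1.25, adjusted p = 0.0431) and -3.16 (0.94, adjusted p = 0.0302, limma with Benjamini-Hochberg adjustment). Elovl2 stood at 15.2, 159 and 209 in HSCs and at 11.1, 14.5 and 0 in CCl4-fib, so that HSC replicate 1 was close to CCl4-fib. Dgat2 stood at 26.9, 13.1 and 177 in HSCs and, near the floor, at 3.17, 1.70 and 7.63 in CCl4-fib. The first call of Elovl3 was made in all 18 alternatives and the second in 16, lost without CCl4-fib replicate 2 or NASH-fib replicate 3 (adjusted p up to 0.0606). Without the libraries that stand apart they stood at -8.28 and 5.24. That of Dgat2 was made in 14 and lost without HSC replicate 1 or 3 or CCl4-fib replicate 1 or 2 (up to 0.107), and stood at -3.94 without the libraries that stand apart. That of Elovl2 was made in 10 and lost without HSC replicate 2 or 3, any 1 CCl4-fib library or both libraries that stand apart, and with no filter or the replicate number as a term (up to 0.148). The summed hepatocyte markers are likewise lowest in CCl4-fib, and their part in these 3 differences was not tested.

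**Figure D5:**
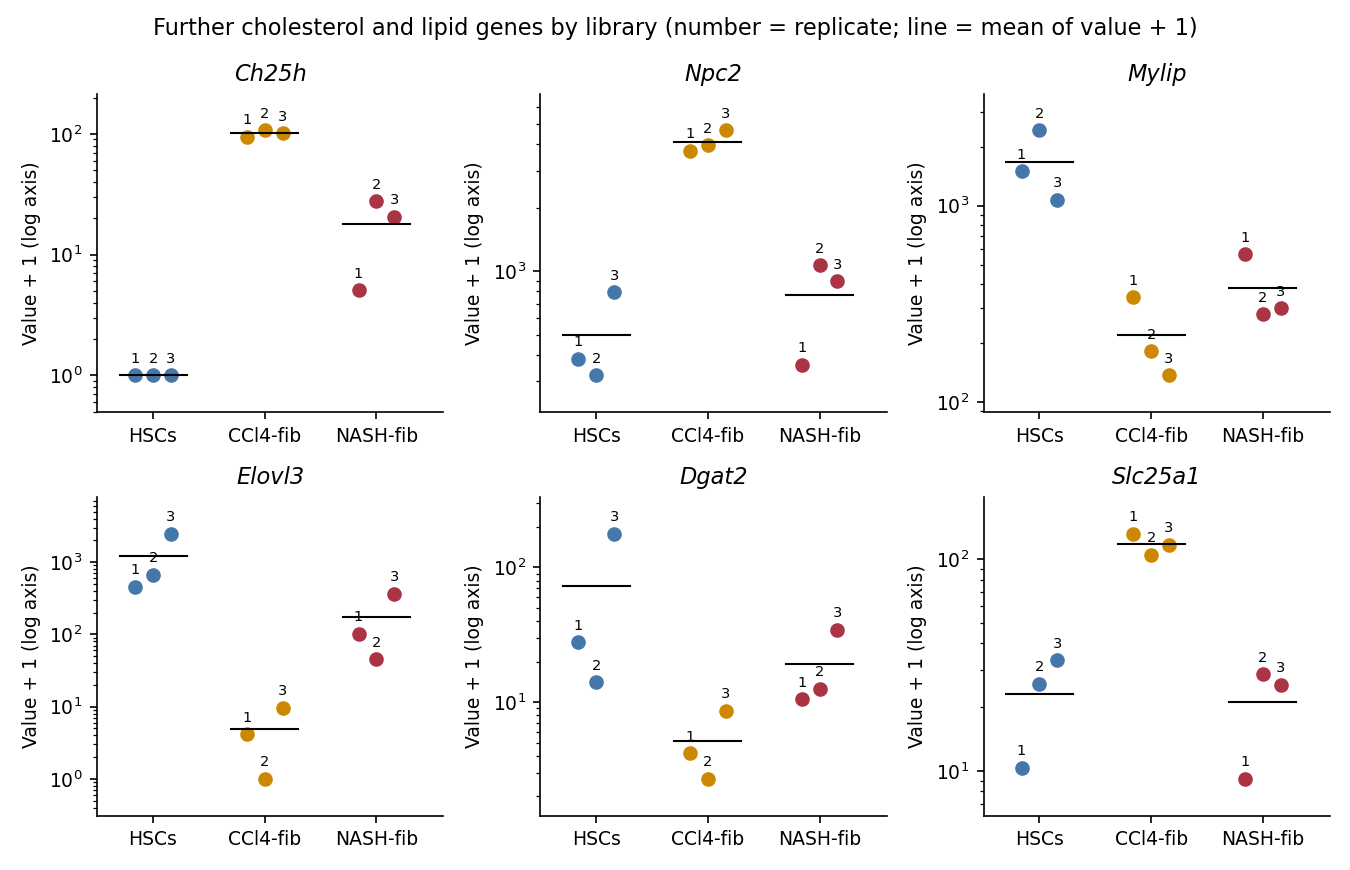
Values plus 1 of 6 further genes in each library on log axes, with the replicate number at each point and the mean as a line. Ch25h is at 1 (no read) in the 3 HSC libraries and highest in CCl4-fib, as are Npc2 and Slc25a1, while Mylip and Elovl3 are highest in HSCs.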

How the data were processed

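RNA of 9 pools of mouse liver cells (3 libraries a group) was amplified (SMARTer kit) and read single-end. Per the file headers and the methods, the authors aligned reads to mm10 with STAR and counted those of either strand on RefSeq exons with HOMER, at most 3 per position. The deposited values are a signal, counts multiplied by 1 factor per library with 10 libraries scaled together, of which 1 is not among the columns. They gave whole reads for 100% of values (within a rounding of 0.006). Of 9 value columns, 0 were left unused.

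Genes that passed filterByExpr of edgeR (minimum count 10, on the recovered reads) were fitted with limma 3.58.1 in R 4.3.3 on log2(value + 1), in 1 fit with trend and no block, with Benjamini-Hochberg adjustment over 13651 genes. The method was run on simulated data with independent libraries and the same spread for all genes. This does not cover libraries that deviate together, as those that stand apart do. The alternatives were edgeR 4.0.16, DESeq2 1.42.0, TMM scaling, no filter, a pseudocount of 5, a term for the replicate number or for the labels' date, the 2 compared groups alone, and each library left out. Promoters came from RefSeq and exon overlaps from GENCODE. The members and lists were chosen with earlier results of these data known. Values in every library are given for called members and for 12 members named as controllers or key enzymes, and Abcg1, Cyp51, Sc5d, Hsd17b7, Dhcr7, Stard4, Abca1, Elovl6, Acaca and Mvd, with ranges or single alternatives of others, were added after their values were seen. Of the further genes, the 4 called genes of largest change per comparison whose libraries do not overlap are named. Of 12 hepatocyte markers, 1 was not analysed here.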

Additional observations from a re-analysis of the deposited data

How the results depend on the processing

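The number of members called moved with the settings, and the cause was not tested. In NASH-fib against HSCs it was 1, and 3 with DESeq2, 0 with the replicate block and 0 with the 2 groups only. In CCl4-fib against HSCs it was 4, and 1 with the date term. In NASH-fib against CCl4-fib it was 1, and 2 with edgeR, 5 with DESeq2, 2 with TMM scaling, 2 with a pseudocount of 5 and 2 with the date term. Leaving out 1 library at a time gave 0 to 1, 0 to 7 and 0 to 3 in that order. CCl4-fib against HSCs fell to 0 without CCl4-fib replicate 1 or 2 and to 1 without HSC replicate 1 or CCl4-fib replicate 3, and rose to 7 without NASH-fib replicate 1. Without both libraries that stand apart, an alternative chosen after seeing the data, the number of members called was 2, 6 and 4 in the same order of comparisons. The remaining alternatives stayed within 1.5 times the main count, but an equal count could hold another gene. With the date term the 1 call in NASH-fib against HSCs was Elovl6 and not Lss. Without NASH-fib replicate 1 the 1 call in NASH-fib against CCl4-fib was Cyp51, lower, and not Scd1. The 4 calls in CCl4-fib against HSCs held Abcg1 with edgeR, and Mvd with no filter, in place of Srebf2.

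Same-numbered libraries had correlations of deviations from -0.473 to 0.514. Deviations from a mean of 3 libraries are tied to each other within a group, so these values cannot show whether the replicate numbers pair the libraries. With the replicate block, 0, 3 and 1 members were called, in the order NASH-fib against HSCs, CCl4-fib against HSCs and NASH-fib against CCl4-fib.

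Over all tested genes, NASH-fib against CCl4-fib gave 678 higher and 773 lower (46.7% higher), and 802 and 563 with edgeR on the recovered reads (58.8%), 1518 and 1161 with DESeq2 (56.7%) and 777 and 618 with TMM scaling (55.7%). On the recovered reads edgeR called 1876 higher and 1716 lower in CCl4-fib against HSCs and 1095 and 481 in NASH-fib against HSCs, where limma called 2209 and 1592, and 1124 and 587. With the date term these counts were 344 and 249, 1422 and 1054, and 549 and 119. In NASH-fib against CCl4-fib the replicate block gave 472 and 457, and leaving out NASH-fib replicate 3 gave 94 and 144. Of 108 member values, 35 changed sign under at least 1 of 18 alternatives. Members near the floor of 3 reads, such as Mvd, limit what this depth can show.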
